A study of Danio rerio with 3 samples.

Results

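Type I and type X collagen genes of zebrafish (Danio rerio) scales were represented by 6 probe sets for 4 genes, namely col1a1a and col1a2 with 2 probe sets each and col10a1a and col10a1b with 1 each. They were all the probe sets annotated with one of these symbols and no other, out of 15502 probe sets for 8793 named genes and for sequences without a single name, left after the 115 control probe sets of the chip were set aside. RNA came from cultured scales in 3 groups of 1 array each, all cultured for 6 h in L-15 medium at 15 °C. The BcP scales received 1 nM benzo[c]phenanthrene (BcP), a polycyclic aromatic hydrocarbon, and the 3-OHBcP scales received 1 nM 3-hydroxybenzo[c]phenanthrene (3-OHBcP), which carries an added hydroxyl group. Control scales were cultured with neither compound. The labels give no solvent, strain or age, and no number of fish or scales per sample.

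The title of the series asks how such compounds act on osteoblasts and osteoclasts, the bone-forming and bone-resorbing cells of the scale. With 1 array per group there is no spread between replicates. Every value therefore describes these 3 arrays, and differences carry neither a test nor an interval.

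Type I collagen is the main fibrillar protein of bone and dermis, and a fish scale is a bony plate laid down by osteoblasts on layers of such fibrils. The genes col1a1a and col1a2 each encode an alpha chain of the type I triple helix, which is hydroxylated and folded in the endoplasmic reticulum, trimmed outside the cell and crosslinked into fibrils. Type X collagen is a short, network-forming collagen known in mammals from hypertrophic cartilage. In zebrafish its gene col10a1a is also known from osteoblasts, and col10a1b is a paralogue of it.

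All 6 collagen probe sets were among the brightest on every array. Ranked by signal from the top among the 15502 probe sets, they lay between places 118 and 232 with BcP, 120 and 237 with 3-OHBcP, and 155 and 308 in control scales. The lowest of the 18 values was the control value of a col1a1a probe set, and it still stood within the top 1.99% of its array. Signal also depends on the probes chosen, so the order between probe sets is a place on the chip and not a ranking of RNA amounts. The brightest signal on the chip was log2 14.09 on each of the 3 arrays, above the highest collagen value of 12.77.

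Type I collagen signal was above control with both compounds in each of the 4 probe sets. The differences were 1.21- to 1.44-fold with BcP and 1.25- to 1.64-fold with 3-OHBcP. Both upper ends came from the dimmer probe set of col1a1a. Its target is in doubt, since it shares its source sequence with a probe set named runx2a. Without it the highest was the brighter col1a2 probe set, at 1.31-fold with BcP and just past 1.5-fold with 3-OHBcP. The brighter probe set of col1a1a had a log2 signal of 12.38 with BcP, 12.47 with 3-OHBcP and 12.11 in control scales. The control array was the lowest of the 3, and the log2 differences from it were 0.28 for BcP and 0.36 for 3-OHBcP. The dimmer probe set of col1a1a read 11.76 with BcP, 11.95 with 3-OHBcP and 11.24 in control scales. It had the same order of arrays with wider gaps, with log2 differences from control of 0.53 and 0.71 for BcP and 3-OHBcP.

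For col1a2 the brighter probe set had a log2 signal of 12.50 with BcP, 12.70 with 3-OHBcP and 12.12 in control scales. These values lay 0.39 and 0.59 above control, which is 1.31-fold for BcP and just past 1.5-fold for 3-OHBcP. The dimmer probe set of col1a2 read 11.71 with BcP, 11.72 with 3-OHBcP and 11.40 in control scales. Here both compounds stood level, at 0.32 above control each, and the step from 1 compound to the other seen in the brighter probe set was missing.

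**Figure D1:**
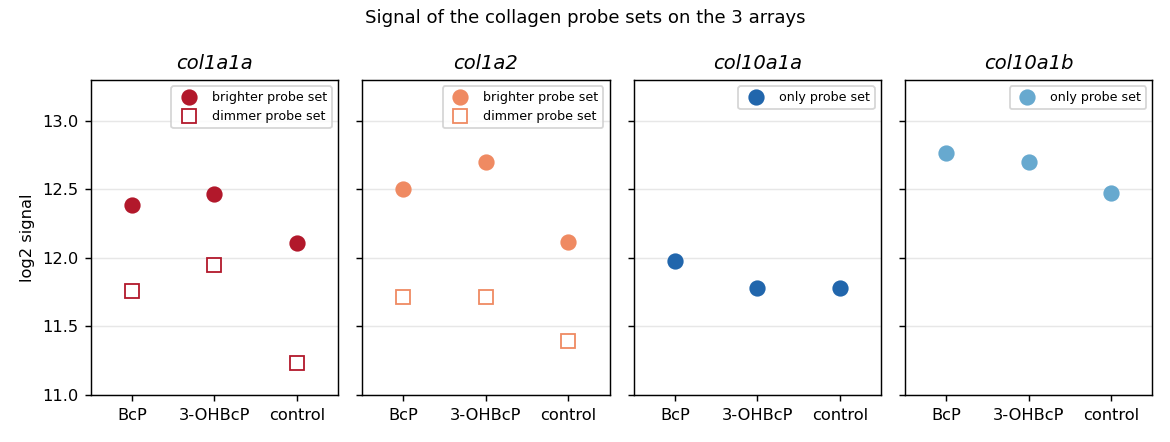
Log2 signal (vertical axis) of each collagen probe set on the BcP, 3-OHBcP and control arrays, 1 panel per gene and 1 point per array, with filled symbols for the brighter or only probe set and open squares for the dimmer one. The control point is the lowest in every probe set of col1a1a, col1a2 and col10a1b, while for col10a1a the 3-OHBcP and control points coincide at 11.78.

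Of the type X genes, col10a1b was above control with both compounds and col10a1a with BcP alone. With 3-OHBcP both had smaller differences from control than any type I probe set, whereas with BcP col10a1b lay above the brighter col1a1a probe set. For col10a1b the log2 signal was 12.77 with BcP, 12.70 with 3-OHBcP and 12.48 in control scales. Both treated arrays lay above control, by 0.29 for BcP and 0.22 for 3-OHBcP, which is 1.22-fold and 1.17-fold. The single probe set of col10a1a read 11.97 with BcP, 11.78 with 3-OHBcP and 11.78 in control scales. The BcP value was 0.19 or 1.14-fold above control, and the 3-OHBcP and control values were identical to the last deposited digit. Such exact ties are common in these values, since 35.8% of all probe sets had the same value on the 3-OHBcP and control arrays, so a difference of 0 is no precise measure of equality.

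With BcP, 5 of the 6 collagen probe sets were at least 1.2-fold above control, all but that of col10a1a, and none was 1.5-fold above. Among the 7751 probe sets whose mean reached the median of the chip (log2 5.35), 3.46% were at least 1.2-fold higher with BcP and 0.129% at least 1.5-fold higher. After centring of the arrays on their medians the count of 5 became 3, because the brighter col1a1a probe set and that of col10a1b then lay just under 1.2-fold. The median log2 difference of the 6 probe sets was 0.30, and that of all 15502 was 0.

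With 3-OHBcP, 4 of the 6 were at least 1.2-fold above control, namely all 4 of type I. The background at that fold was 2.23%. The dimmer col1a1a probe set and the brighter one of col1a2 were also at least 1.5-fold higher, where 0.129% of the 7751 were. The col1a2 value lay on that threshold and fell under it when each array was centred on its median or when 32 was added to the linear signal. Counted from the highest increase over control down, the dimmer col1a1a probe set stood in place 4 of all 15502. The brighter col1a2 one stood in place 16. With BcP they stood in places 50 and 240. The target of that col1a1a probe set is in doubt, as said above. The median over the 6 was 0.34, and that of all probe sets was again 0.

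Bright probe sets varied little between the arrays, so the collagen values were also placed among the 257 probe sets at or above the mean level of the dimmest collagen probe set, log2 11.61. Of the 257, 3.11% were at least 1.2-fold higher with BcP, which is 8 probe sets with the 5 collagen ones among them. With 3-OHBcP 3.50% were, which is 9 with 4 collagen ones among them. At 1.5-fold the shares were 0.00% with BcP and 0.778% with 3-OHBcP and those with 3-OHBcP were the 2 collagen probe sets named above. Among the 257 the dimmer col1a1a probe set, with its target in doubt, had the highest difference from control with each compound. The 6 collagen probe sets filled places 1, 3, 5, 6, 8 and 9 with BcP, and places 1, 2, 6, 8, 11 and 75 with 3-OHBcP, where the last is the tied value of col10a1a.

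**Figure D2:**
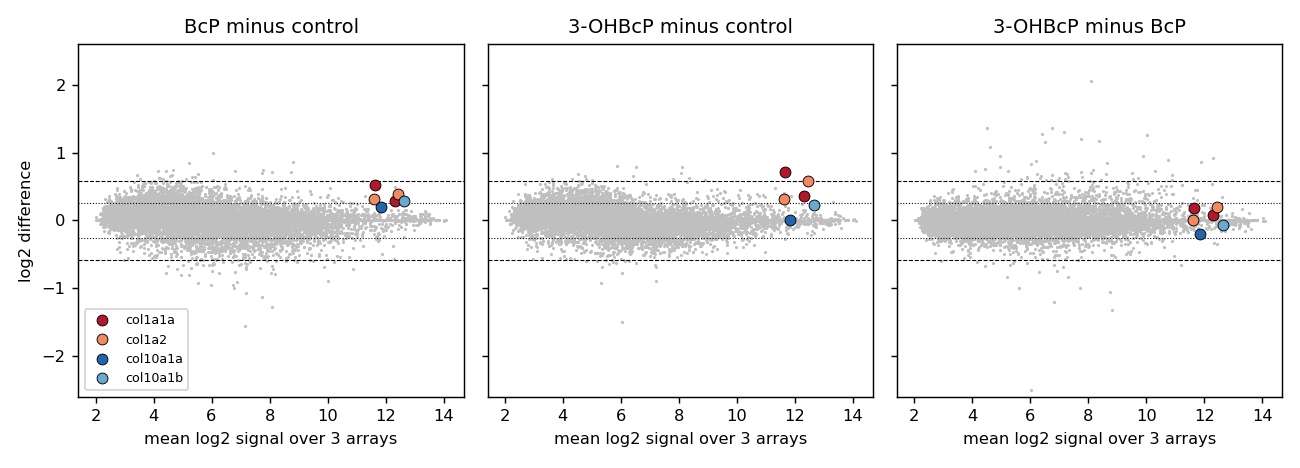
Log2 difference (vertical axis) against mean log2 signal over the 3 arrays (horizontal axis) for all 15502 probe sets in grey, with the collagen probe sets in colour and lines at 1.2-fold (dotted) and 1.5-fold (dashed). Grey points narrow toward the bright end, where 5 of the collagen points with BcP and 4 with 3-OHBcP lie at or above the upper dotted line, and none lies beyond either dotted line between the compounds.

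Both differences were taken from the same control array. A low reading of collagen on that 1 array would raise them together, and with 1 array this and a response to both compounds cannot be told apart. The log2 signal near the 3' end of the GAPDH control transcript exceeded that near its 5' end by 2.15 with BcP, 2.03 with 3-OHBcP and 2.45 in control scales, so this measure of RNA integrity and labelling also set the control array apart. For the actin control transcript the same measure was -0.35 with BcP, -0.70 with 3-OHBcP and -0.47 in control scales, with the control between the others. The 18 probe sets for hybridisation spike-ins had a median log2 difference from control of 0.29 with BcP and 0.08 with 3-OHBcP. Their median log2 signal was 9.29 with BcP, 9.06 with 3-OHBcP and 9.13 in control scales. With 3-OHBcP the direction thus depended on which of these summaries was read. The part of RNA integrity, labelling and hybridisation in the collagen differences was not tested.

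Between the compounds, collagen signal differed by less than 1.2-fold in all 6 probe sets, with type I signal at or above and type X signal below the BcP value in 3-OHBcP scales. In 3-OHBcP scales the brighter col1a2 probe set read 12.70, against 12.50 in BcP scales, a log2 difference of 0.20. The dimmer col1a1a probe set differed by 0.19 and the brighter one by 0.08, both higher with 3-OHBcP. The dimmer col1a2 probe set was at 0.0025 and turned to -0.05 after quantile normalization. Type X signal was lower with 3-OHBcP, by -0.19 for col10a1a (11.78 against 11.97 in BcP scales) and -0.07 for col10a1b (12.70 against 12.77 in BcP scales). At 1.2-fold the background in this comparison was 3.81% higher and 3.39% lower, and no collagen probe set was among them. No interval can be put on a difference between the hydroxylated compound and its parent, each with 1 array.

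The 2 probe sets of a gene gave a measure of disagreement between probes. Both were read on the same arrays and RNA, so their gap is no measure of variation between scales, RNA preparations or arrays. For col1a1a the log2 differences from control of its 2 probe sets lay 0.25 apart with BcP and 0.35 apart with 3-OHBcP. For col1a2 they lay 0.07 and 0.27 apart. Among 543 other genes with exactly 2 probe sets above the level filter, the median gap was 0.10 with BcP and 0.09 with 3-OHBcP, and the 90th percentiles were 0.32 and 0.30. The col1a1a gap with 3-OHBcP exceeded those of 93.6% of these genes, so the size of its difference depends on which probe set is read, while the sign does not.

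Of the 6 probe sets, 5 are marked S and 1, the dimmer of col1a2, is marked A in the chip's names, which is their orientation. Above the level filter, 4.26% of probe sets marked S and 2.76% of those marked A were at least 1.2-fold higher with BcP, and 2.85% and 1.69% with 3-OHBcP. Both col1a1a probe sets carry the name ending that marks probes able to match several transcripts, so signal from related sequences may be included in them. The dimmer one also has the cluster number and the source sequence of a probe set named runx2a, the transcription factor gene that drives osteoblast fate. That runx2a probe set had a log2 signal of 8.08 with BcP, 7.95 with 3-OHBcP and 7.33 in control scales, the control again being lowest. Its differences of 0.75 and 0.62 were in places 4 and 10 of the chip, counted from the highest increase down. The other runx2a probe set read 5.85 with BcP, 5.85 with 3-OHBcP and 5.71 in control scales, a difference of 0.15 for each compound. Which transcripts the paired probe sets bind was not examined here, as no probe sequence was used. Without the dimmer col1a1a probe set, a choice made after seeing the data, 4 of 5 collagen probe sets were at least 1.2-fold higher with BcP and 3 of 5 with 3-OHBcP, and the single one at 1.5-fold with 3-OHBcP was the brighter one of col1a2.

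Of the probe sets that share a cluster number with a member, the remaining one was named cdc42, a small GTPase gene, in the cluster of col10a1a. It read 9.44 on all 3 arrays.

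Each gene was also compared by its brightest probe set with 5248 genes. With only 3 values per gene, a small distance carries little weight. By nearness of the 3 values, each centred on its mean, the named genes closest to col1a1a were cyp26a1, tut1 and hdr. Their Euclidean distances over the 3 arrays were 0.0035, 0.028 and 0.030 on the log2 scale. For col1a2 they were zp2.6, ankar and efna2a, at 0.097, 0.098 and 0.11. The nearest to col10a1a were cops7a, pdap1b and prpf19, at 0.00052, 0.0030 and 0.0032, and to col10a1b mkrn2, rbfox1l and dctpp1, at 0.0069, 0.0073 and 0.010. Distances for col1a2 were larger than those for the other 3 genes. Centring leaves signal level out, and tut1 and zp2.6 read 5.43 and 5.14 in control scales, far below the collagens. From col1a1a, col10a1b was in place 91 at 0.12 and col1a2 in place 193 at 0.16, while from col1a2, col1a1a was in place 10. The 2 type X genes lay 0.16 apart, and col10a1a was in place 568 from col10a1b while col10a1b was in place 2946 from col10a1a, so neither was among the genes nearest to the other.

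Genes that serve collagen in the cell had small differences from control in the middle of their list. Only serpinh1b with 3-OHBcP lay as far above control as some type I probe sets. In the list for collagen folding and hydroxylation, 14 of 16 measured genes passed the level filter. With BcP 9 of these were higher, 1 lower and 4 equal (median log2 difference 0.06), where 37.7% of all 5248 genes were higher, 37.1% lower and 25.2% equal. With 3-OHBcP 8 were higher, 4 lower and 2 equal (median 0.04), where 25.4% of all genes were higher, 41.9% lower and 32.6% equal. The median of all genes was 0 in both comparisons. None of the 14 was at least 1.2-fold above control with BcP, where 2.93% of all genes were, and 2 were with 3-OHBcP, where 1.68% were.

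The collagen chaperone gene serpinh1b, whose protein holds the triple helix while it folds, differed between the compounds. Its log2 signal was 5.61 with BcP, 6.24 with 3-OHBcP and 5.77 in control scales, not far above the level filter of 5.35. It was lowest in its list with BcP at -0.16 and highest with 3-OHBcP at 0.47, or 1.39-fold, and the step between 3-OHBcP and BcP scales was 0.63. The prolyl isomerase gene fkbp10b, which serves procollagen, read 5.90 with BcP, 6.00 with 3-OHBcP and 5.73 in control scales, a difference of 0.17 and 0.27. With 3-OHBcP both were farther above control than either type X gene, and serpinh1b was farther than the brighter col1a1a and the dimmer col1a2 probe sets.

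The hydroxylase genes named here differed by less than 1.2-fold from control. The lysyl hydroxylase gene plod1a read 6.90 with BcP, 6.97 with 3-OHBcP and 6.90 in control scales, and plod3 read 6.50, 6.33 and 6.27 in that order, the highest of its list with BcP at 0.23. The prolyl hydroxylase gene p4ha1b was below the level filter, with differences of -0.12 for BcP and 0.004 for 3-OHBcP. The gene sec23a, part of the coat of vesicles that carry procollagen out of the endoplasmic reticulum, had 8.19 with BcP, 7.80 with 3-OHBcP and 7.97 in control scales. It was thus above control with BcP (0.22) and the lowest of its list with 3-OHBcP (-0.17). No probe set bears the name p4hb, lox, bmp1a or col5a1 alone, and these genes were not analysed here.

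Genes for procollagen cleavage, crosslinking and fibril assembly had no common direction. Of 9 genes above the filter, 4 were higher and 5 lower with BcP, and 5 higher and 4 lower with 3-OHBcP, with medians of -0.01 and 0.00. Among all genes 37.7% were higher and 37.1% lower with BcP, and 25.4% and 41.9% with 3-OHBcP. Osteonectin gene sparc, which encodes a collagen-binding protein of bone, had a log2 signal of 11.34 with BcP, 11.30 with 3-OHBcP and 11.17 in control scales. It differed by 0.17 and 0.13 and was the highest of the list with BcP. With 3-OHBcP the highest was pcolce2b (0.14), a relative of the enhancer of procollagen cleavage, and the enhancer gene pcolcea differed by 0.10 with BcP and -0.08 with 3-OHBcP. The fibronectin gene fn1b was lowest with each compound, at -0.25 with BcP and -0.10 with 3-OHBcP.

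Of 34 other collagen genes listed 13 were measured, and these were mostly tied with control or below it. Of 6 above the filter, 0 were higher, 1 was lower and 5 were equal with BcP, and 1 was higher, 2 were lower and 3 were equal with 3-OHBcP. These ties are exact and can be set against 25.2% of all genes with BcP and 32.6% with 3-OHBcP. With no filter, 3 of 13 were higher, 2 lower and 8 equal with BcP, and 3 were higher, 4 lower and 6 equal with 3-OHBcP. Below the filter, col14a1a differed by 0.33 with BcP and 0.26 with 3-OHBcP, and col9a3 by -0.39 and -0.01. The fibrillar collagen gene col5a2a, whose protein joins type I fibrils, read 8.30 with BcP, 8.37 with 3-OHBcP and 8.30 in control scales on its brighter probe set. Its dimmer probe set, below the filter, differed by -0.23 and -0.16. The lowest was col17a1b, a gene for the transmembrane collagen of hemidesmosomes, with 10.08 with BcP, 10.18 with 3-OHBcP and 10.35 in control scales. Its second probe set, also above the filter, was at 9.71 on all 3 arrays. The cartilage collagen gene col2a1a lay far below the filter, at 3.27 with BcP, 3.26 with 3-OHBcP and 3.27 in control scales.

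**Figure D3:**
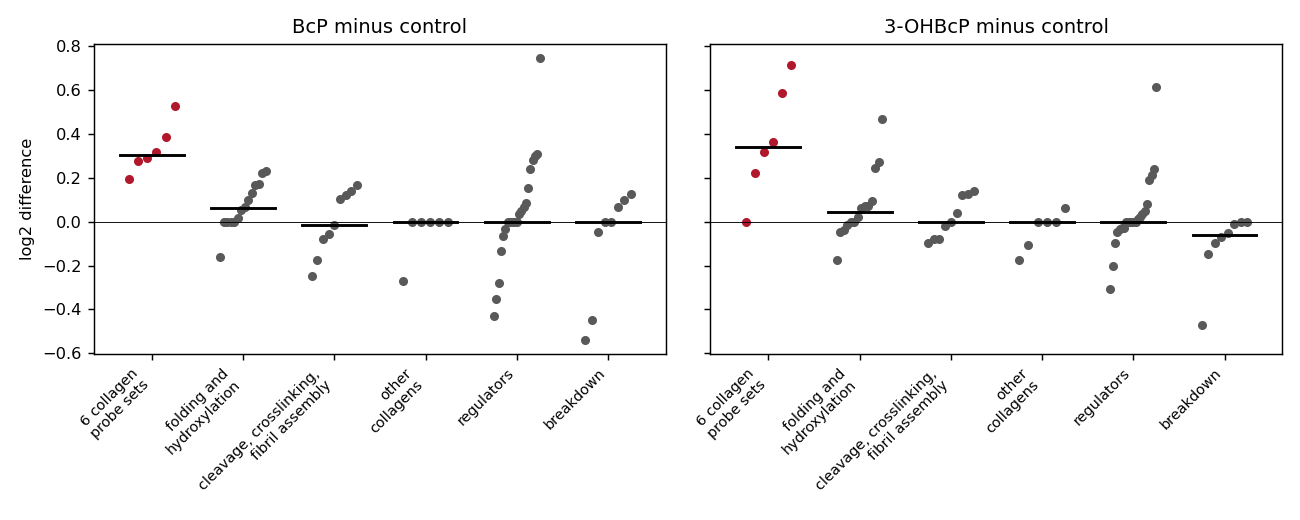
Log2 difference from control (vertical axis) of the 6 collagen probe sets in red and of the genes of 5 lists above the level filter in grey, for BcP on the left and 3-OHBcP on the right, with a black line at each median. The collagen medians are 0.30 and 0.34, and those of the lists lie between -0.06 and 0.06.

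Regulators of these collagen genes had no common direction either. Of 21 above the filter, 10 were higher, 6 lower and 5 equal with BcP, and 9 were higher, 7 lower and 5 equal with 3-OHBcP. The median was 0 in each case. Over all genes 37.7% were higher and 37.1% lower with BcP, and 25.4% and 41.9% with 3-OHBcP. With BcP 4 of the 21 were at least 1.2-fold higher and 3 at least 1.2-fold lower, against 2.93% and 6.19% of all genes. With 3-OHBcP 1 was higher and 1 lower by that fold, against 1.68% and 5.20%. The runx2a probe set described above was the highest with both compounds. The growth factor gene tgfb1a, whose product is known to induce type I collagen in mammals, was the lowest. It read 6.12 with BcP, 6.24 with 3-OHBcP and 6.55 in control scales, a difference of -0.43 and -0.31. The regulators runx2b, sp7 and ihha were below the filter. Their differences were 0.39 and 0.35 for the brighter runx2b probe set, 0.06 and 0.19 for sp7, which encodes the osteoblast factor Osterix, and 0.15 and 0.28 for the hedgehog ligand gene ihha, with BcP and 3-OHBcP in that order. The second runx2b probe set differed by 0.05 with each compound.

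The list for collagen breakdown also holds the inhibitor genes timp2a and timp2b, and 8 of its 26 genes were measured. Its counts were even with BcP, and its genes lay at or below control with 3-OHBcP. Of 8 above the filter, 3 were higher, 3 lower and 2 equal with BcP, and 0 were higher, 6 lower and 2 equal with 3-OHBcP, with medians of 0 and -0.06. Over all 5248 genes, 41.9% were lower and 25.4% higher with 3-OHBcP. The gelatinase gene mmp9 read 9.94 with BcP, 9.74 with 3-OHBcP and 9.84 in control scales, and the collagenase gene mmp13a read 7.58, 7.46 and 7.51 in that order. The gelatinase gene mmp2 was highest of the list with BcP (0.13, and -0.01 on its second probe set), and with 3-OHBcP the top value was a tie at 0 of timp2a and ctsk. The inhibitor gene timp2b was the lowest with both, at -0.54 with BcP and -0.47 with 3-OHBcP. Cathepsin K gene ctsk, the bone-degrading protease of osteoclasts, had 10.15 on all 3 arrays, and the acid phosphatase gene acp5a differed by 0.13 with BcP and 0.01 with 3-OHBcP.

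Markers of cell types were read beside the collagens. Of 13 osteoblast markers 9 were measured. The scales carried osteoblast markers, with sparc, spp1, ifitm5, phex, dlx5a, alpl and runx2a above the level filter and sp7 and runx2b below it. Of the 7 above it, alpl lay near the filter, at 5.62 in control scales, and the other phex probe sets were below it. With BcP 7 of these 7 were higher, and with 3-OHBcP 6 were higher and 1 equal, with medians of 0.11 and 0.06. Over all genes 37.7% were higher with BcP and 25.4% with 3-OHBcP, and 1 of the 7 is the runx2a probe set whose target is in doubt. The summed linear signal of the 9 measured osteoblast markers, to which sparc contributed most, was 3940 with BcP, 3838 with 3-OHBcP and 3469 in control scales. In bulk RNA, more cells of a type and more RNA per cell cannot be told apart.

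For fibroblasts, which also make type I collagen, 3 of 8 markers had a probe set. Their summed signal was 910 with BcP, 856 with 3-OHBcP and 864 in control scales, and the decorin gene dcn read 8.20, 8.21 and 8.21 in that order. Cartilage markers, relevant to type X collagen, were measured for 4 of 6 genes, and none passed the filter. Of 8 skeletal muscle markers 7 were measured and 3 passed the filter. The 7 had a summed signal of 456 with BcP, 382 with 3-OHBcP and 384 in control scales, to which mb contributed most. All 3 above the filter were higher with BcP and 2 of 3 with 3-OHBcP, where 37.7% and 25.4% of all genes were. The genes mylpfa, ckma, tnnt3b and tpma were below the filter on average.

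Of 7 leukocyte markers 6 were measured, with a summed signal of 1907 with BcP, 1537 with 3-OHBcP and 1672 in control scales. With BcP 5 were higher and 1 lower, and with 3-OHBcP 1 was higher, 4 were lower and 1 was equal. Of all genes 37.7% were higher and 37.1% lower with BcP, and 25.4% and 41.9% with 3-OHBcP. The leukocyte marker mpx was highest with BcP at 0.48 and lowest with 3-OHBcP at -0.35. A dimmer mpx probe set above the filter differed by 0.46 and 0.27. In the same order coro1a differed by 0.26 and -0.15, ptprc by 0.06 and -0.23, and lyz by 0.22 and 0. The dimmer coro1a probe set, also above the filter, differed by 0.06 with BcP and 0.08 with 3-OHBcP. The marker lcp1 was above control with both compounds (0.07 and 0.06). The spi1b probe set taken differed by -0.02 with each, and its dimmer one by 0.27 with BcP and -0.36 with 3-OHBcP. The 11 measured epidermal markers summed to 42931 with BcP, 43399 with 3-OHBcP and 43568 in control scales, a sum made up mostly of bright keratins and epcam. Of the 11, 1 was higher, 6 lower and 4 equal with BcP, and 2 were higher, 5 lower and 4 equal with 3-OHBcP. Of all genes 25.2% were equal with BcP and 32.6% with 3-OHBcP. On the probe sets taken, krt4, krt5, krt91 and tp63 equalled control with both compounds, and krt8 lay 0.04 above it. The claudin genes cldnf (-0.91 with BcP and -0.37 with 3-OHBcP), cldna (-0.46 and -0.46) and cldne (-0.40 and -0.26) lay below control on both treated arrays. With BcP these 3 of the 11 were at least 1.2-fold lower, where 6.19% of all genes were. With 3-OHBcP 3 of the 11 were, namely cldnf, cldna and evpla (-0.28), where 5.20% of all genes were. There cldne lay just under that fold. The 4 measured osteoclast markers summed to 2297 with BcP, 2159 with 3-OHBcP and 2218 in control scales. Both measured pigment cell markers were below the filter. The part of cell composition in the collagen differences was not tested.

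**Figure D4:**
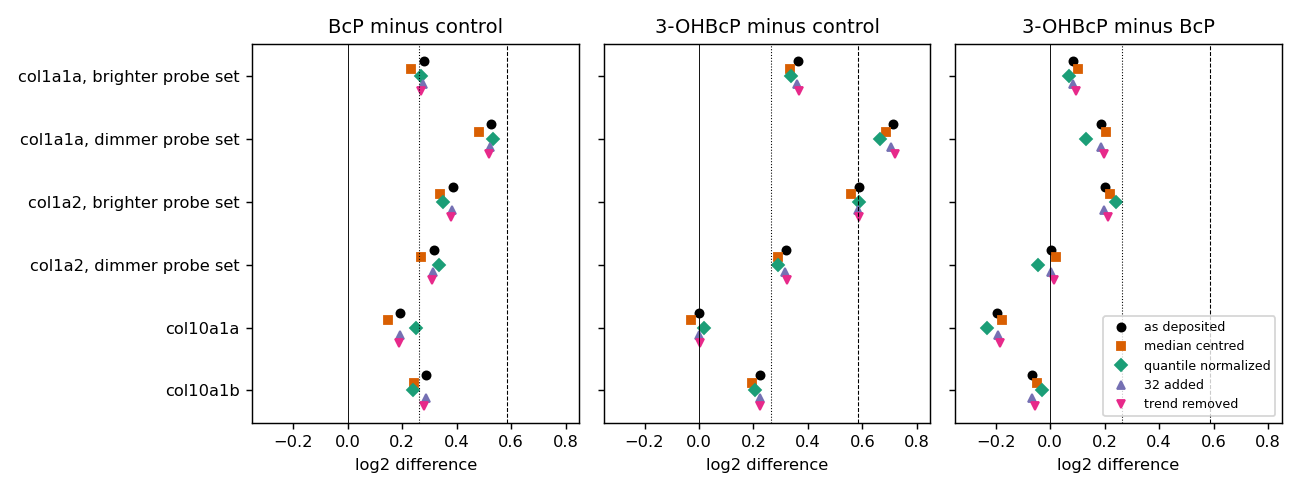
Log2 difference (horizontal axis) of each collagen probe set (vertical axis) under 5 ways of scaling the arrays, 1 panel per comparison, with lines at 0, at 1.2-fold (dotted) and at 1.5-fold (dashed). The type I values stay above 0 against control in both panels under each setting, and those of col10a1a with 3-OHBcP range from -0.03 to 0.02 around 0.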

How the data were processed

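RNA from 3 scale samples was measured on 3 Affymetrix Zebrafish Genome arrays. Per the labels' protocols, RNA with an integrity number above 8.5 was accepted and 500 ng was made into labelled cRNA with a 3' kit. The authors deposited 1 log2 value per probe set and array, and the submitters' processing notes name Affymetrix Expression Console. No header names the scale, which was read as log2 from the range of the values. For the algorithm, background step, normalization and version, nothing is given in the sources used here. The number of arrays limits the precision.

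The deposited values were used as they stand, each probe set apart. Names came from the platform annotation (1 symbol for 10795 of 15502 probe sets, several for 135, none for 4572), updated by gene identifier to RefSeq names of assembly GRCz12tu (10711 found). No coordinates or sequences were used. Each gene of a list was taken by its brightest probe set. The level filter is the median of the probe set means, and 5248 genes passed it. Differences, folds, ranks and counts were computed with Python 3.11.15 and pandas 2.3.3 and tested on simulated data. With 1 array per group, thresholds of 1.2-fold and 1.5-fold are descriptive.

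A rule set which genes to name. It covers the 4 collagen genes, probe sets of the same cluster and the 3 genes nearest in pattern to each. It also covers the highest and lowest genes of each list, and a fixed set of collagen-making, osteoblast and osteoclast genes. The members, lists and this rule were chosen with earlier results of these data known. Genes outside the rule were also named, with their values in view. Among them are fkbp10b, col14a1a, col9a3, several cell type markers and the bright probe sets of the last section. Alternatives were centring on the median, quantile normalization, adding 32 to the linear value, removing the trend with signal by lowess (span 0.2), other level filters, and other ways of choosing probe sets.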

Additional observations from a re-analysis of the deposited data

How the results depend on the processing

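No paired analysis was possible because each group has 1 array, and no replicate could be left out. Under centring, quantile normalization, an added 32 and removal of the signal trend, the 72 recomputed collagen differences shifted by between -0.05 and 0.06 (log2), each less than the median gap between 2 probe sets of a gene. At 1.2-fold with BcP, 3 collagen probe sets were higher after centring, in place of 5. At 1.5-fold with 3-OHBcP, 1 was higher, in place of 2, after centring, with 32 added, or without the probe set that shares a source sequence with runx2a (added after seeing the data). The shares of probe sets past the fold changed with the level filter, and not all in the same direction. At 1.2-fold higher they were 5.75% with BcP and 3.87% with 3-OHBcP with no filter, and 1.96% with BcP with the filter at the 75th percentile. In 3-OHBcP against BcP the share at that fold was 2.61% with no filter and 4.72% with the filter at the 75th percentile. At 1.5-fold higher in 3-OHBcP against BcP the share was 0.316% with no filter. Over all 5 lists together, the number of genes higher was 17 of 38 with BcP, 13 with 3-OHBcP and 12 for 3-OHBcP against BcP with the filter at the 75th percentile. With no filter it was 35 of 81 with 3-OHBcP and 31 for 3-OHBcP against BcP. These totals of the lists change with the number of genes admitted. No other alternative moved these collagen counts, shares or totals by over 1.5 times.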

Other observations

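Few other bright probe sets stood as far above control as the type I collagens, and these were picked out after their values were seen. With BcP, 3 of the 251 were at least 1.2-fold higher. One was annotated enam, named for the enamel matrix protein enamelin of mammals, with a log2 signal of 12.61 in BcP scales, 12.28 in 3-OHBcP scales and 12.12 in control scales. Its difference of 0.49 with BcP lay between those of the dimmer col1a1a probe set and the brighter col1a2 one. The other 2 carry no single gene name, and they were also at least 1.2-fold higher with 3-OHBcP, at 0.36 and 0.41.

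With 3-OHBcP, the remaining 3 of 5 such probe sets were 1 for the keratin gene krt91 (13.44 in 3-OHBcP scales and 13.17 in control scales, while the brightest krt91 probe set was at 13.49 on all 3 arrays), 1 for the heat shock gene hsp70.3 (12.29 in 3-OHBcP scales and 11.92 in control scales) and 1 annotated with several genes. Bright genes at least 1.2-fold higher in 3-OHBcP than in BcP scales included hsp70.3 (0.85), the co-chaperone gene dnajb1b (0.54), chac1 (0.44), whose enzyme degrades glutathione, and the phosphatase gene dusp1 (0.30). Each of these named genes read lower with BcP than in control scales. The values were 11.43 against 11.92 for hsp70.3 and 11.96 against 12.34 for dnajb1b. For chac1 they were 11.51 against 11.78, and for dusp1 11.56 against 11.86. With 3-OHBcP hsp70.3, dnajb1b and chac1 read above control, while dusp1 equalled it. No collagen probe set was at least 1.2-fold higher in 3-OHBcP than in BcP scales.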
